A study of Solanum lycopersicum with 2 samples.

Results

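Transporter genes were compared between leaves of tomato (Solanum lycopersicum) seedlings that overexpress SlRBZ and leaves of wild-type seedlings. The loci were chosen by the symbol in the deposited table, with prefixes for water channels (PIP, TIP, NIP), ammonium (AMT), nitrate (NRT), phosphate (PT), proton pump (LHA), potassium (HAK, LKT), sodium and proton exchange (HKT, NHX), metal (IRT, NRAMP, FRO) and sugar (SUT, HT) genes. These prefixes found 18 loci among 17803 that carry a gene, on 9 chromosomes. Of the 16 prefixes 7 found no locus (TIP, NIP, NRT, HAK, HKT, IRT and NRAMP). A symbol stood at 954 gene loci, so transporter genes listed by identifier only were not analysed here.

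The overexpressor group held 1 library of SlRBZ transgenic plants, and the wild-type group held 1 library of plants with no allele or agent named in the labels. Both came from young primary leaves at the seedling stage. The labels name no promoter for the transgene, no number of plants per library and no pooling. No symbol in the table stands for SlRBZ, and its transcript was therefore not analysed here as a check of the labels. With 1 library per genotype no difference has a replicate check, and no test between genotypes was possible.

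Plant cells take up ammonium, phosphate, potassium, nitrate and sugars through membrane carriers and channels. The plasma membrane proton pumps (H+-ATPases, here LHA) spend ATP to push protons out, and the proton gradient and voltage that result drive most of these carriers. Exchangers of the NHX family move sodium or potassium into vacuoles and endosomes in return for protons. In leaves, sucrose carriers load the phloem and hexose carriers retrieve sugars from the cell wall space, while several of the ion uptake genes are best known from roots.

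Values are FPKM as deposited, meaning fragments scaled to locus length and library total, so levels of different genes can be set side by side per unit of length. Low values moved in steps of 1 fragment, which put the library totals at 14.2 M fragments in the overexpressor, against 7.47 M in wild type (M for mega). The 95% intervals given with FPKM are exact Poisson intervals at an effective length of 1 kb and cover counting error only, not differences between plants. A difference is that of log2(FPKM + 1), overexpressor minus wild type. Adding 1 shrinks differences of weakly expressed genes. Calls of higher or lower were made at 2-fold on that scale. In this leaf RNA, fewer cells of a type and less RNA per cell cannot be told apart. Leaf mesophyll markers (Rubisco small subunit, chlorophyll-binding and photosystem II genes) were abundant, with a summed level of 47135 FPKM in the overexpressor and 298803 FPKM in wild type. They were called lower at 19 of 20 loci, against 15.0% of all gene loci tested. Their median difference was −2.60, against −0.05 for all gene loci. When the 2 libraries were scaled to equal sums over all loci, the marker median was 0.32, against 2.76 for all gene loci. The shoot meristem list had 2 loci, with sums of 124 FPKM in the overexpressor and 205 FPKM in wild type. LET12 made up most of both sums, at 121 FPKM in the overexpressor and 198 FPKM in wild type. TKN2 read 3.47 FPKM in the overexpressor and 6.61 FPKM in wild type. Whether LET12 marks the meristem in this leaf RNA was not tested. The 6 trichome loci summed to 61.0 FPKM in the overexpressor and 103 FPKM in wild type, with a median difference of −0.07, 2 loci called lower (TPS7 and TPS41) and none higher. Of that sum TPS41 alone read 25.5 FPKM in the overexpressor and 60.5 FPKM in wild type. The 1 root marker locus, RSI-1, read 9.13 FPKM in the overexpressor and 10.1 FPKM in wild type. No locus carried a symbol of the fruit or flower lists. The part of these cell types in the transporter results was not tested.

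All 18 loci passed the filter of 1 FPKM on the mean of both libraries. As deposited, 6 of them (33.3%) were lower in the overexpressor by 2-fold or more, and 2 (11.1%) were higher by as much. Over all 17631 gene loci tested, 15.0% were lower and 11.6% were higher. The median difference of the 18 loci was −0.37 with quartiles of −1.29 and 0.46, against −0.05 with quartiles of −0.60 and 0.47 for all gene loci. The lower loci were the ammonium transporters AMT1-1, AMT1-2 and AMT1-3, the proton pumps LHA2 and LHA4, and the potassium channel LKT1. The higher loci were the exchanger NHX1 and the phosphate transporter PT3. PT3 was listed at 0 in wild type, where any locus that passes the filter is called higher. None of the 4 sugar transporters was called in either direction as deposited.

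**Figure D1:**
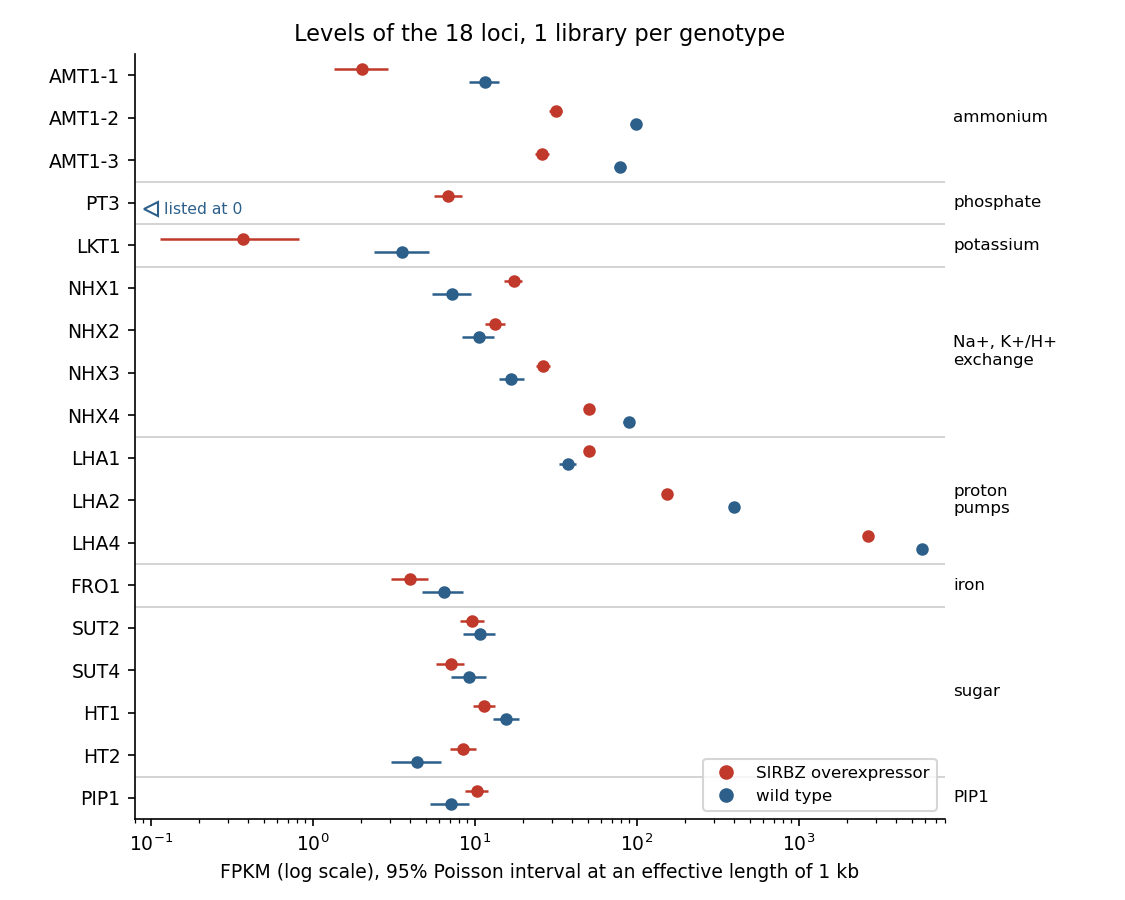
Levels of the 18 loci in FPKM on a log axis, the overexpressor above wild type at each locus, with 95% Poisson intervals at an effective length of 1 kb as bars. The 3 ammonium transporters, LKT1, LHA2 and LHA4 lie to the left in the overexpressor as deposited, PT3 is listed at 0 in wild type, and LHA4 stands alone above 1000 FPKM.

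The share of loci called depended on the level, which bears on how each call reads. Among gene loci averaging 1 FPKM or more and under 10, 7.38% were lower and 19.2% higher. From 10 to under 100 FPKM, 14.3% were lower and 7.83% higher. From 100 to under 1000 FPKM, 36.8% were lower and 6.33% higher, and at 1000 FPKM or more 58.6% were lower and 4.68% higher. AMT1-1 and LKT1 thus lay in the class where lower calls were rarest, PT3 in the class where higher calls were most common, and LHA4 in the class where lower calls were the majority.

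**Figure D2:**
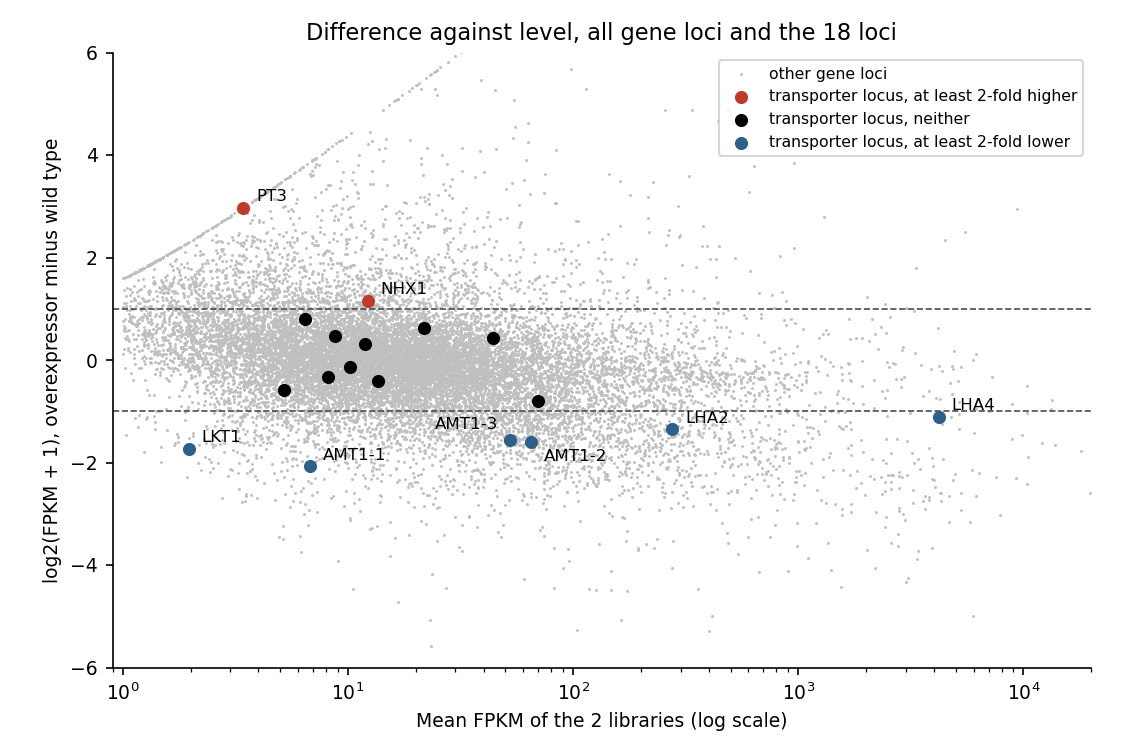
Difference in log2(FPKM + 1), overexpressor minus wild type, against the mean FPKM of both libraries on a log axis. Grey points are the other gene loci that passed the filter (46 lie outside the axes), dashed lines mark 2-fold, and the 18 transporter loci are coloured by their call on the deposited scale. The diagonal edge that holds PT3 is formed by loci listed at 0 in wild type.

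The scaling between libraries sets where 0 lies. As deposited, the median of all gene loci was −0.05. It was 0.18 at equal upper quartiles, −0.03 at equal medians, 0.57 at equal sums without the 100 most abundant gene loci, and 2.76 at equal sums over all loci. The last of these scales rests mainly on a gene-free locus of 34 bp that held 43.2% of the summed FPKM in the overexpressor and 89.8% in wild type. Differences are therefore also given relative to the median of all gene loci under each scaling. Ratios between genes within a library need no scaling at all.

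All 3 ammonium transporters of the AMT1 family, which import ammonium across the plasma membrane, were called lower as deposited. At equal sums over all loci their differences were above 0 (0.37 to 1.32), but below the median of all gene loci (2.76). Their summed level was 59.7 FPKM in the overexpressor and 189 FPKM in wild type. AMT1-1 (chromosome 9, minus strand, 65513400 to 65514873) read 2.004 FPKM (1.36 to 2.92) in the overexpressor and 11.6 FPKM (9.21 to 14.2) in wild type. The intervals did not overlap, the difference was −2.07, and 3.22% of all gene loci tested had a lower one. The overexpressor to wild type ratio of its FPKM was 0.173, with a counting interval of 0.112 to 0.272.

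AMT1-2 (chromosome 4, minus strand, 46379169 to 46382142) read 31.6 FPKM (28.8 to 34.7) in the overexpressor and 98.4 FPKM (91.4 to 106) in wild type, a difference of −1.61. AMT1-3 (chromosome 3, plus strand, 15459872 to 15461519) read 26.1 FPKM (23.5 to 28.9) in the overexpressor and 78.7 FPKM (72.5 to 85.4) in wild type, a difference of −1.56. Their ratios between genotypes, 0.321 for AMT1-2 and 0.332 for AMT1-3, had overlapping counting intervals (0.285 to 0.362 and 0.290 to 0.378), whereas that of AMT1-1 lay below both. AMT1-2 stood 15.8 times above AMT1-1 in the overexpressor and 8.50 times above it in wild type. AMT1-2 and AMT1-3 kept nearly the same ratio to each other, 1.21 in the overexpressor and 1.25 in wild type.

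The order of levels was AMT1-2, AMT1-3, AMT1-1 in both libraries. When scaled without the 100 most abundant loci, AMT1-2 (−0.96) and AMT1-3 (−0.91) were under 2-fold, while AMT1-1 (−1.59) was still called lower. Relative to the median of all gene loci, AMT1-1 differed by −2.02 as deposited and −2.40 at equal sums, AMT1-2 by −1.56 and −1.48, and AMT1-3 by −1.51 and −1.44. The AMT1 genes are similar in sequence, and the treatment of shared reads is not given in the sources used here.

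Of the 3 plasma membrane proton pumps, LHA2 and LHA4 were called lower and LHA1 was not. All 3 were above 0 at equal sums over all loci. There LHA2 (1.56) and LHA4 (1.82) were below the median of all gene loci (2.76), and LHA1 (3.33) was above it. LHA4 (chromosome 7, plus strand, 8095828 to 8102636) read 2669.6 FPKM (2643 to 2697) in the overexpressor and 5740.4 FPKM (5686 to 5795) in wild type, a difference of −1.10. Its rank among gene loci by level was 72 in the overexpressor and 76 in wild type. At equal upper quartiles its difference of −0.85 was under 2-fold. LHA2 (chromosome 6, minus strand, 40059389 to 40066822) read 155 FPKM (148 to 161) in the overexpressor and 397 FPKM (383 to 412) in wild type, a difference of −1.36.

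LHA1 (chromosome 3, plus strand, 57608874 to 57615656) read 50.8 FPKM (47.1 to 54.6) in the overexpressor and 37.5 FPKM (33.2 to 42.1) in wild type, a difference of 0.43. It was called higher (1.08) when scaled without the 100 most abundant loci. Its intervals did not overlap, and it lay above the median of all gene loci under each of the 5 scalings. LHA4 exceeded LHA1 52.6-fold in the overexpressor and 153-fold in wild type. LHA4 held 92.9% of the family FPKM in the overexpressor and 93.0% in wild type, with counting intervals that overlap. LHA1 held 1.77% (1.64 to 1.90) in the overexpressor and 0.607% (0.538 to 0.682) in wild type, and LHA2 held 5.38% (5.16 to 5.60) in the overexpressor and 6.43% (6.21 to 6.66) in wild type. These pumps are closely related genes, so reads can divide among them and single values are uncertain.

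The 4 NHX exchangers did not move together. NHX1 (chromosome 6, plus strand, 2763599 to 2770677) read 17.4 FPKM (15.2 to 19.6) in the overexpressor and 7.23 FPKM (5.43 to 9.43) in wild type. Its difference of 1.16 was the only call in the family as deposited, and it was under 2-fold (0.87) at a pseudocount of 5. NHX1 was called higher under each of the 5 scalings, but equal sums called 16745 of all 17631 gene loci higher. NHX3 (chromosome 1, plus strand, 69042078 to 69047030) read 26.5 FPKM (23.9 to 29.3) in the overexpressor and 16.9 FPKM (14.1 to 20.1) in wild type, a difference of 0.62 as deposited and 1.27 without the 100 most abundant loci. NHX2 (chromosome 4, minus strand, 53709618 to 53725589), a potassium and proton exchanger, read 13.3 FPKM (11.5 to 15.4) in the overexpressor and 10.6 FPKM (8.37 to 13.2) in wild type, with overlapping intervals. NHX4 (chromosome 1, plus strand, 80542394 to 80548223) read 50.8 FPKM (47.2 to 54.7) in the overexpressor and 89.2 FPKM (82.5 to 96.2) in wild type. Its difference was −0.80 as deposited and 2.10 at equal sums over all loci. Relative to the median of all gene loci these were −0.75 and −0.66.

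The make-up of the NHX family within each library therefore differed. NHX4 held 47.0% (44.5 to 49.6) of the family FPKM in the overexpressor and 72.0% (69.0 to 74.9) in wild type. NHX1 held 16.1% (14.2 to 17.98) in the overexpressor and 5.84% (4.42 to 7.55) in wild type. NHX4 exceeded NHX1 2.93-fold in the overexpressor and 12.3-fold in wild type. Descending by level, the order was NHX4, NHX3, NHX1, NHX2 in the overexpressor and NHX4, NHX3, NHX2, NHX1 in wild type. In wild type the intervals of NHX2 and NHX1 overlapped, and in the overexpressor those of NHX1 and NHX2 overlapped slightly.

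**Figure D3:**
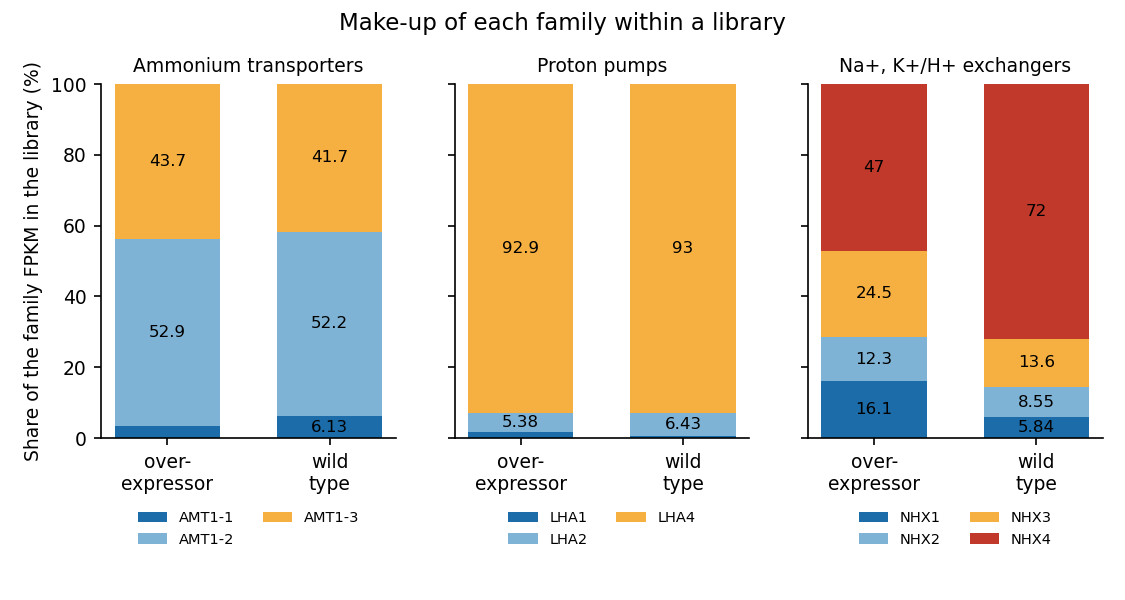
Share of each family's summed FPKM held by its genes, in percent, for the AMT1 ammonium transporters, the LHA proton pumps and the NHX exchangers, with the overexpressor left of wild type. LHA4 held 92.9% of the pump family in the overexpressor and 93.0% in wild type, while NHX4 held 47.0% in the overexpressor and 72.0% in wild type.

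PT3, a phosphate transporter of the PHT1 family (chromosome 9, plus strand, 64981596 to 64983250), read 6.87 FPKM (5.58 to 8.38) in the overexpressor and was listed at 0 in wild type. In wild type 3 fragments at 1 kb would be 0.402 FPKM. Since 663 loci were at 0 in wild type and 76 in the overexpressor, and an exact 0 can be a failed estimate, no fold is given. Its neighbour LEPT1, another phosphate transporter, ends 6767 bp upstream on the same strand. LEPT1 read 3.52 FPKM in the overexpressor and 0.959 FPKM in wild type, a difference of 1.21. Counted over its full span, LEPT1 came to 77.01 fragments in the overexpressor, against 10.997 in wild type, within 0.05 of whole numbers in both. PT3 counted in this way came to 142.4 fragments in the overexpressor, which is not a whole number. The pair are similar genes that can share reads.

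LKT1 (chromosome 12, minus strand, 1258370 to 1264932), an inward potassium channel known from roots, was the lowest of the 18 loci in the overexpressor. It read 0.373 FPKM (0.114 to 0.819) in the overexpressor and 3.56 FPKM (2.38 to 5.26) in wild type. At 1 kb that is 5 fragments in the overexpressor, against 27 in wild type, and the ratio of 0.105 had a wide counting interval of 0.0292 to 0.256. The difference was −1.73 as deposited and −0.25 at equal sums over all loci. LKT1 was the only one of the 6 lower loci to stay below 0 there. That sign rests on the same 5 fragments in the overexpressor and was not tested. At a pseudocount of 5 the difference of LKT1 was −0.67, without a call. FRO1 (chromosome 1, minus strand, 78075479 to 78078751), a ferric-chelate reductase that serves iron uptake in roots, read 3.97 FPKM (3.03 to 5.18) in the overexpressor and 6.47 FPKM (4.74 to 8.52) in wild type. These level intervals overlapped, while the ratio of 0.613 had a counting interval of 0.417 to 0.934 as deposited, below 1. No call was made.

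The 4 sugar transporters chosen by symbol were under 20 FPKM in both libraries, and none was called as deposited. SUT2 (chromosome 5, minus strand, 1804154 to 1810447), a sucrose transporter, read 9.67 FPKM (8.14 to 11.4) in the overexpressor and 10.8 FPKM (8.49 to 13.3) in wild type. SUT4 (chromosome 4, minus strand, 59490865 to 59504210) read 7.10 FPKM (5.77 to 8.61) in the overexpressor and 9.20 FPKM (7.19 to 11.7) in wild type. Both pairs of intervals overlapped, with differences of −0.14 for SUT2 and −0.33 for SUT4. At equal sums without the 100 most abundant loci these were 0.47 and 0.27.

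The hexose transporters HT1 and HT2 differed in opposite directions as deposited, both under 2-fold. HT1 (chromosome 2, plus strand, 38409479 to 38413033) read 11.5 FPKM (9.82 to 13.4) in the overexpressor and 15.6 FPKM (13.0 to 18.8) in wild type, a difference of −0.41. HT2 (chromosome 9, minus strand, 62931037 to 62936921) read 8.47 FPKM (7.05 to 10.1) in the overexpressor and 4.41 FPKM (3.04 to 6.21) in wild type, a difference of 0.81. HT1 stood 1.36 times above HT2 in the overexpressor and 3.54 times above it in wild type. HT2 was called higher at equal upper quartiles (1.04), and HT1 was above 0 without the 100 most abundant loci (0.21).

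The prefix for water channels found only PIP1, and that locus goes against its group. It lies on chromosome 2 (plus strand, 36690627 to 36692270), where the RefSeq gene table (assembly SLM_r2.1) has a gene named pip1. The aquaporin that carries PIP1 as an alias there is PIP2-7, on chromosome 1. In tomato the name Pip1 also belongs to a secreted cysteine protease of defence, so this locus is not treated as a water channel. It read 10.3 FPKM (8.72 to 12.1) in the overexpressor and 7.16 FPKM (5.32 to 9.28) in wild type, a difference of 0.47. Without it, 6 of 17 loci were lower and 2 higher. All 18 symbols occur in that table on the same chromosome as in the deposited one.

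**Figure D4:**
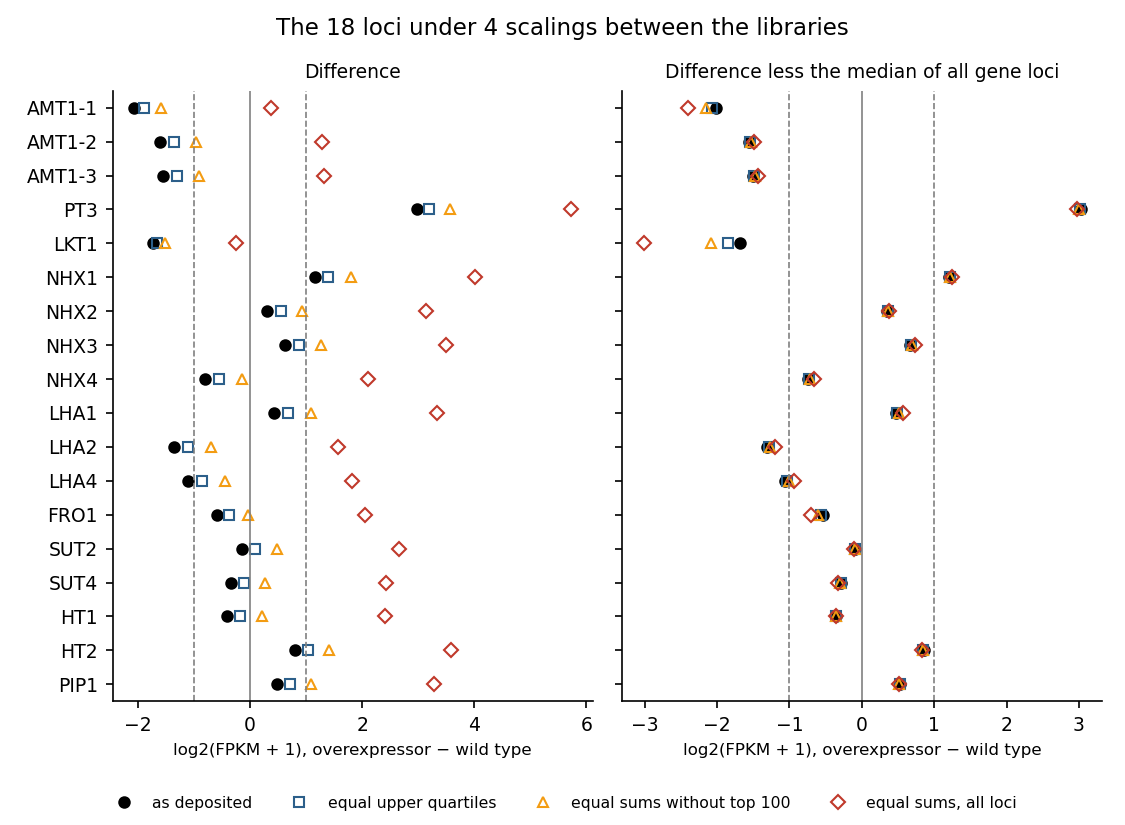
Difference of each of the 18 loci in log2(FPKM + 1), overexpressor minus wild type, under 4 scalings between the libraries (left), and the same less the median of all gene loci under that scaling (right). Dashed lines mark a difference of 1 in either direction. On the left the loci shift together with the scaling, so that AMT1-1, AMT1-2, AMT1-3, LHA2 and LHA4 lie above 0 at equal sums over all loci. On the right the 3 AMT1 genes, LHA2, LHA4 and LKT1 lie below 0 in each. So do FRO1, NHX4, HT1, SUT2 and SUT4, which were not called as deposited. LHA4 is at −0.94 at equal sums over all loci. NHX1 and PT3 lie above 1 in each.

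Gene neighbours of the 18 loci gave a local view. Of 36 flanking gene loci 35 passed the filter, of which 5 were lower and 1, LEPT1, was higher, with a median difference of −0.14. The 5 of 35 lower were near the 15.0% of all gene loci. The 1 of 35 higher was under the 11.6% of all gene loci. Both neighbours of AMT1-1 were above 0 as deposited (0.28 and 0.63), and so was 1 of the neighbours of AMT1-3 (0.35), the other being at −0.16. Of the neighbours of AMT1-2 one was at −0.27, and the other, Solyc04g050470.2, was called lower at −2.30, with 30.3 FPKM in the overexpressor and 154 FPKM in wild type. Both neighbours of LHA4, 100808 and 16977 bp away, were themselves called lower (−1.35 and −1.19). The other flanking loci called lower lay beside FRO1 (−1.01) and SUT4 (−1.14).

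A list of genes that act with these transporters, found by symbol, held 26 loci, of which 25 passed the filter. Of these 25, 7 (28%) were higher and 4 (16%) lower, and their median difference was 0.14. Over all gene loci tested 11.6% were higher and 15.0% lower, so the lower share was near that of all loci. The same shares stand beside the counts of the smaller lists below. The 4 lower ones (NII1, SUS4, LESUT1 and TIV1) were above 0 at equal sums over all loci, but below the median of all gene loci there (2.76). PHOT2, a blue-light receptor, and FERREDOXIN entered it by their letters alone, and neither was called. ST3, TMT and ZIP were not called either, and no role is given for them here.

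Among 7 nitrogen assimilation loci, 2 were higher and 1 lower. NII1 and NII2 encode nitrite reductases, which make ammonium from nitrite in plastids. NII1 read 156 FPKM in the overexpressor and 429 FPKM in wild type, a difference of −1.45 as deposited. NII2 read 50.3 FPKM in the overexpressor and 14.3 FPKM in wild type, a difference of 1.75. NII1 stood 3.10 times above NII2 in the overexpressor and 30.0 times above it in wild type. AS1, asparagine synthetase, read 7.04 FPKM in the overexpressor and 0.0987 FPKM in wild type, where it rests on about 1 fragment at 1 kb. At that wild-type level any locus that passes the filter is called higher. NIA, nitrate reductase, read 359 FPKM in the overexpressor and 534 FPKM in wild type, a difference of −0.57 that was not called.

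Among 5 loci of the phosphate starvation list, which include the blue-light receptor PHOT2, 2 were higher, LEPT1 and RNALE. RNALE, a ribonuclease known from phosphate-starved tomato cells, read 37.2 FPKM in the overexpressor and was listed at 0 in wild type. As with PT3, its call followed from passing the filter at 0 in wild type. Its relative RNALX read 20.4 FPKM in the overexpressor and 13.8 FPKM in wild type, and TPSI1, a phosphate starvation transcript, 201 FPKM in the overexpressor and 253 FPKM in wild type. Neither RNALX nor TPSI1 was called.

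Among 6 tested loci of sugar loading and cleavage, 3 were lower and 1 higher. LESUT1, the sucrose carrier of phloem loading, read 101 FPKM (95.7 to 106) in the overexpressor and 232 FPKM (221 to 243) in wild type, a difference of −1.19 as deposited. It stood 10.4 times above SUT2 in the overexpressor and 21.5 times above it in wild type. The sucrose synthases SUS3 and SUS4 differed in opposite directions as deposited. SUS3 read 74.2 FPKM in the overexpressor and 11.2 FPKM in wild type (2.62), and SUS4 16.9 FPKM in the overexpressor and 52.3 FPKM in wild type (−1.57). The remaining lower locus, TIV1, a vacuolar invertase named after its values were seen, read 28.7 FPKM in the overexpressor and 59.5 FPKM in wild type. At equal sums over all loci this list had a median of 1.87, against 2.76 for all gene loci. As deposited the list median was −1.01, against −0.05 for all gene loci.

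Of 3 loci on the iron list, FERREDOXIN entered by its letters alone, and no iron role is given here for FDH, formate dehydrogenase. FDH was higher, at 35.4 FPKM in the overexpressor and 12.2 FPKM in wild type. CHLN, nicotianamine synthase, which makes a metal chelator, read 26.8 FPKM in the overexpressor and 20.6 FPKM in wild type and was not called. Of 4 other pump and channel loci LCA1, a calcium pump, was higher, at 102 FPKM in the overexpressor and 33.6 FPKM in wild type. SOS1, the plasma membrane sodium and proton exchanger, read 43.5 FPKM in the overexpressor and 45.4 FPKM in wild type.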

How the data were processed

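RNA from young primary leaves was sequenced in 1 library per genotype. Per the labels' protocols, RNA was extracted with TRIzol and libraries followed Illumina's standard kit procedure. TopHat, an aligner, is named per the submitters' processing notes. Its version is not given in the sources used here, nor are the counting tool, strand use, genome build and annotation. The authors deposited FPKM per locus, per the file headers, with the bounds of each locus but no exons. Coordinates are those of the table. No reference sequence was used here.

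The members and gene lists were chosen with earlier results of these data known. The 26 acting partners were picked by symbol prefix from a list chosen with the same knowledge. In the marker lists PG was read as a whole symbol and TPS only before a digit, to keep unrelated symbols out. Every member is named. Of partners, the 2 largest differences in each direction of a sub-list past 2-fold are named. Differences are log2(FPKM + 1) without scaling, for loci averaging 1 FPKM or more. With 1 library a group there is no test. The design text speaks of duplicates, but the values come in 1 column per genotype. Whether that column pools duplicates is not stated, and duplicates were not analysed here.

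Depth was recovered from gene-free, unstranded loci of 300 bp or more. A total and a length offset (199 bp in both libraries) were fitted so that low FPKM became whole fragments. Of values under 40 fragments, 85.8% of 1877 in the overexpressor, against 84.5% of 1976 in wild type, lay within 0.05 of a whole number. Intervals are exact Poisson for levels, exact conditional binomial for ratios and Clopper-Pearson for shares, all at an effective length of 1 kb, since the counted length of each gene is not in the table. The fit and the calls were tested on simulated data. Python 3.11.15, pandas 2.3.3, NumPy 2.4.6, SciPy 1.17.1 and matplotlib 3.10.9 were used. Other pseudocounts, filters, fold limits and 4 other scalings were tried.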

Additional observations from a re-analysis of the deposited data

How the results depend on the processing

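The counts of higher and lower loci were the same as reported without the filter, without joined loci (no member joins genes), with a pseudocount of 0.1 and at equal medians. Of the higher count of 2, 1 was left at a pseudocount of 5 (PT3), 1 at a mean of at least 5 FPKM (NHX1) and 1 at a limit of 3-fold, and it was 4 at 1.5-fold. The lower count of 6 was 5 at a pseudocount of 5 and at a mean of at least 5 FPKM (each without LKT1), 5 at equal upper quartiles (without LHA4) and 3 at 3-fold. Of all gene loci 11.4% were lower at a pseudocount of 5, 16.8% at that mean and 6.69% at 3-fold. At equal upper quartiles 1938 of all 17631 gene loci were lower. The share of all gene loci that was higher was 5.54% at a pseudocount of 5, 8.54% at that mean and 5.69% at 3-fold. At 1.5-fold 3710 of all 17631 gene loci were higher. Without the 100 most abundant loci 6 loci were higher, 2 (AMT1-1 and LKT1) were lower and the median was 0.24, against 28.1% higher and 6.52% lower over all gene loci. At equal sums 16 loci were higher, 0 were lower and the median was 2.42, against 16745 higher and 62 lower (0.352%) of all 17631 gene loci, and AMT1-1 (0.37), AMT1-2 (1.28), AMT1-3 (1.32), LHA2 (1.56) and LHA4 (1.82) turned positive. At equal upper quartiles the median was −0.14. These shifts follow from the scaling factor itself, which is the same for each locus before 1 is added. PIP1 was left out after the data were seen, which changed no count. Depth limits LKT1, with 5 fragments at 1 kb in the overexpressor and 27 in wild type, and AMT1-1 (29 in the overexpressor, 86 in wild type). No paired analysis was possible because each genotype has 1 library.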

Other observations

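Further carriers with a symbol were chosen after their values were seen, so they are values only. Among aquaporins, which pass water, AQP2 read 98.3 FPKM (93.3 to 104) in the overexpressor and 68.4 FPKM (62.6 to 74.6) in wild type, a difference of 0.52. SDAQUA read 24.8 FPKM in the overexpressor and 23.6 FPKM in wild type, and RB7, a tonoplast aquaporin, 9.31 FPKM in the overexpressor and 8.20 FPKM in wild type. None of the 3 was called.

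The vacuolar proton pyrophosphatase VP1.1, which acidifies the vacuole, read 326 FPKM (316 to 335) in the overexpressor and 741 FPKM (722 to 761) in wild type. Its difference was −1.18 as deposited and 1.74 at equal sums over all loci. Relative to the median of all gene loci these were −1.14 and −1.03. Of the proline transporters, LEPROT2 read 65.4 FPKM (61.2 to 69.7) in the overexpressor and 181 FPKM (171 to 191) in wild type, called lower as deposited at −1.45. LEPROT1 read 21.3 FPKM (19.0 to 23.9) in the overexpressor and 10.7 FPKM (8.49 to 13.3) in wild type, a difference of 0.93 that was not called. The amino acid carrier LEAAP2 read 35.0 FPKM in the overexpressor and 34.5 FPKM in wild type, and the peptide carrier LEOPT1 22.2 FPKM in the overexpressor and 11.7 FPKM in wild type, also without a call.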
